A study of Drosophila melanogaster with 4 samples.

Results

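The centromere-side end of chromosome arm 2L of Drosophila melanogaster was examined for H3K9me1, histone H3 that carries a single methyl group on lysine 9, in adult head nuclei. The stretch ran from 2L 20000001 to the end of the assembled arm at 23011544 on FlyBase release 5, and left out 21350001 to 21650000, which holds the histone gene repeats and their flanks. Its members were chosen by position alone, as tiles of 20 kb and enriched clusters with a midpoint inside these limits. They came to 137 of the 5955 tiles on the 5 large arms. The clusters numbered 274 of 15404 in ChIP replicate 1, 262 of 14643 in ChIP replicate 2, and 366 of 21525 in the authors' list for the whole series. A cluster is an interval that the authors listed as enriched in ChIP over input.

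All libraries came from wild-type flies of the Oregon-R strain (Oregon-R-modENCODE), labelled as mixed adults, whose heads were collected with sieves. There were 2 libraries made with an H3K9me1 antibody, from a lot marked as new, and 2 input libraries, which entered only the cluster lists. No condition was varied, and the labels do not say whether replicates 1 and 2 stem from different flies, so their spread may be technical only. Whole heads hold many cell types, and fewer cells carrying the mark cannot be told apart here from less of the mark per cell. Read depth is unknown for these libraries, so an empty tile means only that no cluster was listed there, and the mark may still be present.

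Pericentric heterochromatin is the compact, repeat-rich and gene-poor chromatin on either side of a centromere. Its histones carry di- and trimethylated H3K9, which the protein HP1 binds, and genes moved next to it can be silenced in some cells and not in others. The monomethylated form is a step on the way to these higher states and is also found outside heterochromatin. Neither H3K9me2, H3K9me3 nor HP1 was measured here, so where heterochromatin begins on 2L was not measured, only where H3K9me1 clusters end.

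H3K9me1 clusters covered much of the sequence up to 22100001 and almost none of it beyond. In each list, the single split of the tile values that left the least variance within the 2 sides lay at 22100001, so that 91 tiles fell on the distal side, away from the centromere, and 46 on the centromeric side. Each replicate was then split at the position found in the other one. These positions were the same, so the swap changed no value. The split was placed by coverage itself, so a difference in coverage between the sides was partly built in. The same holds for measures tied to coverage, such as the number of clusters and the length of runs without one. On the distal side, clusters covered 38.5% of bases in replicate 1 and 34.5% in replicate 2, a mean of 36.5 ± 2.82% (SD, n = 2). On the centromeric side they covered 1.81% and 0.465%, a mean of 1.14 ± 0.952%. The centromeric values of both replicates lay far below both distal values, and their ratio to the distal side was 0.0471 in replicate 1 and 0.0135 in replicate 2. With 2 replicates, the smallest two-sided p of an exact test is 0.5, and tiles and clusters are not replicates, so no test was made here or for the comparisons that follow.

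**Figure D1:**
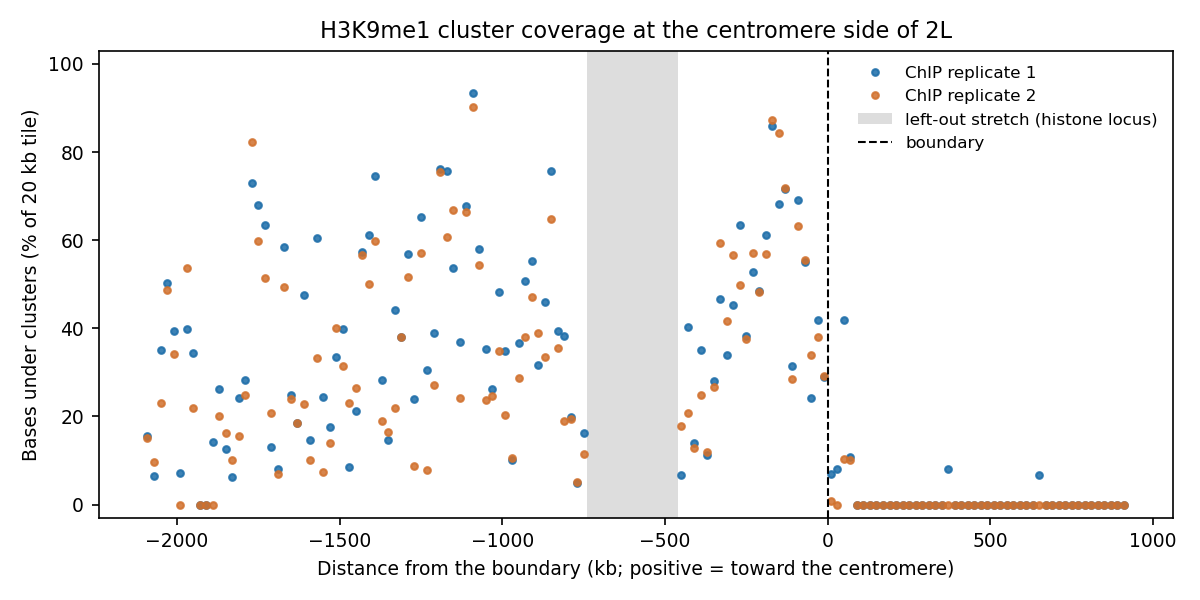
Percent of bases under H3K9me1 clusters in each 20 kb tile (y axis) against distance from the boundary in kb (x axis), with 1 point per tile for ChIP replicate 1 (blue) and replicate 2 (orange). Tiles on the distal side scatter up to 93.4% in replicate 1 and 90.2% in replicate 2, while most points right of the dashed line lie at 0.

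Nearly every distal tile held part of a cluster, and most centromeric tiles held none. On the distal side, 2 of 91 tiles had no cluster base in replicate 1 and 4 of 91 in replicate 2, or 2.20% and 4.40%. Over the tiles of the 5 arms these shares were 9.24% and 10.9%. On the centromeric side, 40 of 46 tiles were empty in replicate 1 and 43 of 46 in replicate 2, or 87.0% and 93.5%. The tiles empty in both replicates numbered 2 on the distal side and 40 on the centromeric side, against 7.24% of tiles over the 5 arms. No centromeric tile was covered to 50% in either replicate, while 22 distal tiles reached this in both, or 24.2%, against 19.1% over the 5 arms. The share of well covered distal tiles was therefore near that of the arms, and the share of empty centromeric tiles was not. The sides were set by tile coverage, whereas the tiles of the arms were not selected. That empty tiles gathered on the centromeric side was thus partly built in.

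The distal tiles varied widely, and in much the same way in both replicates. Their SD over tiles was 21.8 percentage points in replicate 1 and 22.0 in replicate 2, whereas the 2 replicates differed by a median of 7.15 points within a tile. Replicate 1 was the higher in 62 of the 91 tiles and replicate 2 in 27. Pearson's r between the replicates was 0.913 over the 91 distal tiles. It describes tiles that share a library, which are not independent, and carries no p.

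Coverage along the distal side had high and low stretches rather than one level. In steps of 100 kb, it was low near the start, at 15.7 ± 0.817% (SD, n = 2) at 20100001 to 20200000 and 14.6 ± 3.04% at 20200001 to 20300000. It was 60.4 ± 2.34% at 20900001 to 21000000, and lowest, at 12.8 ± 1.20%, in the tiles kept from 21300001 to 21400000, beside the left-out histone stretch. Beyond that stretch, the 100 kb steps stood at 18.7 ± 2.23%, 31.9 ± 1.37%, 49.8 ± 0.136% and 64.7 ± 1.48% in the order toward the centromere, the last at 21900001 to 22000000. Of 231 steps of 100 kb on 2L, only 3 had a higher mean coverage than this one. The step ended 100 kb short of the boundary, but its end is set by the grid of steps. The 20 kb tile at 22000001 to 22020000 was still covered to 69.0% and 63.2%, and that at 22020001 to 22040000 to 55.0% and 55.6%.

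The change across the boundary took up about 200 kb. Coverage was 43.8% in replicate 1 and 44.0% in replicate 2 at 22000001 to 22100000. In the next 100 kb, the first of the centromeric side, it was 13.6% and 4.24%. It was 0% in both replicates at 22200001 to 22300000, and in the 20 kb tiles the last value above 0 shared by both was at 22160001 to 22180000, where replicate 1 had 10.8% and replicate 2 had 10.1%. Tiles on the near side were uneven: 22000001 to 22020000 was covered to 69.0% and 63.2%, 22040001 to 22060000 to 24.1% and 34.0%, and 22080001 to 22100000, the last before the boundary, to 28.9% and 29.2%. The largest difference between the replicates in this stretch was at 22140001 to 22160000, with 41.9% in replicate 1 and 10.4% in replicate 2.

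**Figure D2:**
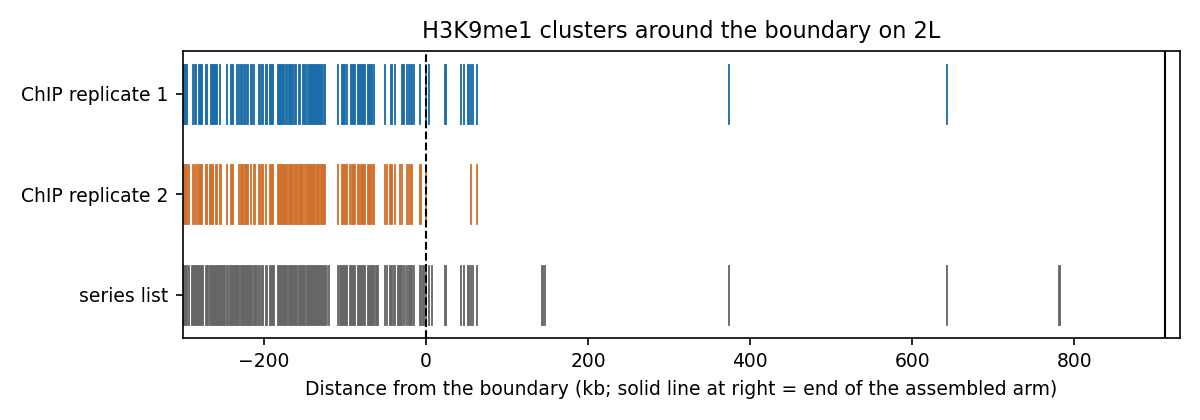
H3K9me1 clusters as bars along the distance from the boundary in kb, for ChIP replicate 1, ChIP replicate 2 and the series list, from 300 kb before the boundary to the end of the arm (outlines make narrow bars slightly wider than scale). Bars are dense left of the dashed line; right of it replicate 1 has 10 clusters and replicate 2 has 2, all but 2 of them within 100 kb.

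The clusters on the distal side were narrow in the main, with a few broad ones. In replicate 1 the median was 1977 bp, with quartiles of 1571 and 3110 bp. In replicate 2 it was 1904 bp, with quartiles of 1492 and 2850 bp. The narrowest were 1303 and 1302 bp, so neither list holds a narrower cluster there, and the broadest were 13559 and 11218 bp. Clusters of at least 5 kb numbered 17 of 264 and 18 of 260.

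Single regions stood out on the distal side. The 5 broadest series clusters that both replicates touched were spread over it. The broadest lay at 21954351 to 21976671, and spanned 22.3 kb. In it, 3 clusters of replicate 1 covered 89.2% and 6 clusters of replicate 2 covered 89.5%. It ended 123.3 kb before the boundary, within the densest 100 kb of the stretch. The next, at 20315429 to 20334981, spanned 19.6 kb, of which the replicates covered 94.7% and 85.6%. A region of 16.3 kb at 20428762 to 20445098 was covered to 68.1% and 69.0%, and one of 16.1 kb at 20900310 to 20916408 to 89.4% and 88.6%. The last, 12.95 kb long at 20998046 to 21010995, was a single cluster in replicate 1, at 96.1%, and 2 clusters in replicate 2, at 95.5%. Broad series clusters were thus often made of several replicate clusters set close together.

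The clusters with the highest authors' score were not the broadest ones. The score is the authors' own value for each cluster, on a scale not given in the sources used here, and is set beside others only within a list. The highest series score of a region found in both replicates was 0.954, at 21215744 to 21219173, a region of 3.43 kb that scored 1.06 in replicate 1 and 0.992 in replicate 2. The next was 0.910 at 21251577 to 21257304, where the replicate scores were 1.16 and 0.980, and by 0.907 at 21032673 to 21036917, with 0.918 and 1.00. All of these lay more than 800 kb from the boundary. The 3 shared regions nearest to it had series scores of 0.432, 0.298 and 0.185. They lay at 22098304 to 22100472, which reaches over the boundary, at 22091398 to 22094436 and at 22079603 to 22082429. That they scored below regions picked for the highest scores was fixed in advance. The median series score of the distal side was 0.389, and other series clusters less than 100 kb before the boundary scored 0.822 and 0.802.

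On the centromeric side, only 2 regions were found in both replicates, and they lay close together. The first was at 22153984 to 22156125 in the series list, 2.14 kb long, starting 54.0 kb past the boundary, with a series score of 0.476. Replicate 1 covered 92.3% of it with a score of 0.477, and replicate 2 covered 95.6% with a score of 0.658. The other was at 22161231 to 22163461, 2.23 kb wide and scored 0.472 in the series list, and was covered to 93.6% and 90.2% with scores of 0.616 and 0.542. From its end to the end of the assembled arm, a distance of 848.1 kb, no cluster was shared by both replicates.

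The other clusters on the centromeric side were seen in replicate 1 and not in replicate 2. Of the 10 in replicate 1, 8 touched no cluster of replicate 2, and 6 of these 8 lay in the same 100 kb next to the boundary. The remaining 2 stood alone at 22472572 to 22474189, with a score of 0.413, and at 22741325 to 22742661, with a score of 0.224. Of the 10, 9 had a score under 0.610, the median of the replicate 1 list. The median of the distal clusters of replicate 1, 0.550, lay below it too. Replicate 2, by contrast, had no cluster in the last 848.3 kb of the arm.

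Spacing differed between the sides more than width did. Clusters numbered 145.1 per Mb in replicate 1 and 142.9 per Mb in replicate 2 on the distal side, and 11.0 and 2.19 per Mb on the centromeric side. The density was thus 13.2-fold lower past the boundary in replicate 1 and 65.1-fold lower in replicate 2, with few clusters behind the lower values. The median gap between neighbouring clusters was 1920 and 2195 bp on the distal side and 4167 and 5095 bp on the centromeric side, where there were 9 gaps in replicate 1 and 1 in replicate 2. The ratio of the medians was 2.25 ± 0.107 (SD, n = 2). It rests on few gaps: those of replicate 1 include 2 of 309.0 and 267.1 kb, the only gap of replicate 2 lies within 100 kb of the boundary, and the run from the last cluster to the end of the arm is not counted in either.

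Those long runs made up most of the centromeric side. The longest stretch of the region without a cluster in either replicate ran from 22163524 to 22472571, 309.0 kb. The next were 22742662 to 23011544, 268.9 kb up to the end of the arm, and 22474190 to 22741324, 267.1 kb. The series list covered 1.21%, 0.764% and 0.00599% of them. On the distal side the longest was 20153034 to 20206127, at 53.1 kb, with no series cluster in it, and the next was 21309519 to 21338979, at 29.5 kb, of which series clusters covered 16.0%. The 3 centromeric stretches were thus each more than 200 kb longer than any distal one outside the left-out histone stretch.

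Cluster width differed in direction between the replicates at this boundary, where replicate 2 had only 2 centromeric clusters. In replicate 1 the centromeric median was 1617 bp, below the distal median, but in replicate 2 it was 2050 bp, above it. The ratio of centromeric to distal median width was 0.818 in replicate 1 and 1.08 in replicate 2, a mean of 0.947 ± 0.183 (SD, n = 2). The widest centromeric cluster was 2.15 kb in replicate 1 and 2.09 kb in replicate 2. On the distal side, 42.0% of clusters in replicate 1 and 40.8% in replicate 2 were wider than that. These limits are the centromeric maxima themselves, from 10 and 2 clusters, so the shares cannot show that the sides differ in broad clusters. An alternative rule, which takes the point where the mean of 10 successive tiles stays below 50% of the mean of the first 50 tiles, put the boundary at 22040001 and more clusters on the centromeric side. The clusters added to that side lay in covered tiles before 22100001. With this half-height rule the ratio was below 1 in both replicates, at 0.800 and 0.860. It was 0.741 in the series list, with 15 centromeric clusters.

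**Figure D3:**
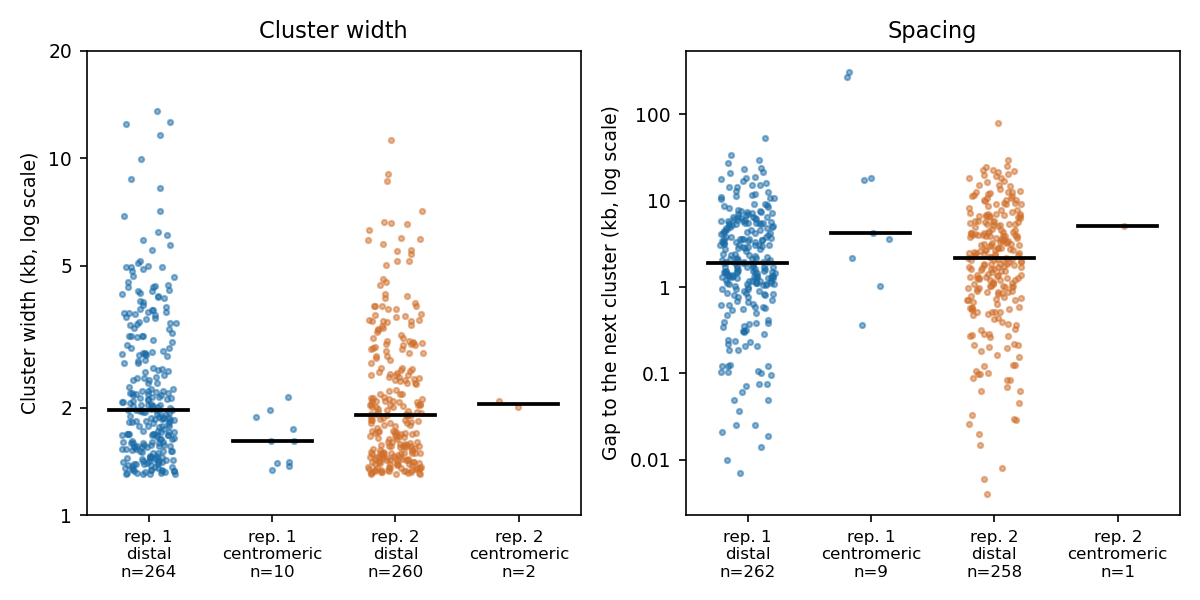
Cluster width (left) and gap to the next cluster (right), both in kb on log axes, for each ChIP replicate and side of the boundary, with 1 point per cluster or gap and a bar at the median. Centromeric widths lie inside the lower part of the distal range, and 2 centromeric gaps of replicate 1 exceed every distal gap.

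Scores and replicate sharing also differed in direction between the replicates at this boundary. The median score was 0.550 on the distal side and 0.480 on the centromeric side in replicate 1, and 0.555 and 0.600 in replicate 2. On the distal side, 219 of 264 replicate 1 clusters touched a replicate 2 cluster, and 234 of 260 the other way round. On the centromeric side these shares were 2 of 10 and 2 of 2. With the boundary at 22040001, the centromeric median score was lower in both replicates, by a difference of -0.0711 and -0.0436. The share of clusters found in the other replicate was lower too, by -30.6 and -5.75 percentage points. That position lies before 22100001, so clusters of covered tiles then counted as centromeric. In replicate 2, the 2 clusters past 22100001 had the higher median score, 0.600, and both were shared. The lower values of replicate 2 thus came with the clusters added from before 22100001. Distal clusters that were not shared were narrower, with a median of 1569 bp against 2139 bp for shared ones in replicate 1, and 1432 against 1980 bp in replicate 2. A wider cluster meets the required overlap of 1 bp more readily, so this direction is partly built into the measure.

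The series list, read as the authors' pooled set, placed the boundary at the same tile and held more clusters on both sides. It covered 57.2% of the distal side and 2.68% of the centromeric side. Of its 351 distal clusters, 52.7% touched a cluster in both replicates and 29.6% in neither. Of its 15 centromeric clusters, 2 touched both replicates, 8 touched 1 and 5 touched neither. The last before the end of the arm lay at 22880053 to 22882079 with a score of 0.396, and 3 more sat together between 22242103 and 22247008, none of them seen in a replicate. Sparse calls in the last 911.5 kb were thus seen in the series list too, where 13 of 15 scores lay below the list's median of 0.425. The median of its distal clusters, 0.389, lay below it as well.

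Without the left-out histone stretch, the distal side was covered slightly more than 2L before 20 Mb in both replicates. That stretch had a mean coverage of 0% at 21400001 to 21500000 and at 21500001 to 21600000. The distal side also ends at the fitted split, whereas nothing was left out before 20 Mb, so the comparison is not on equal terms. From its start to 20 Mb, 2L was covered to 33.1 ± 3.13% (SD, n = 2), with a median width of 2019 ± 58.7 bp, a median gap of 2640 ± 254 bp and 125.0 ± 6.15 clusters per Mb. There the replicates covered 35.3% and 30.9%, against 38.5% and 34.5% on the distal side, a difference a little larger than the SD between replicates. The distal side had a median gap of 2057 ± 194 bp and 144.0 ± 1.55 clusters per Mb. Within these limits, clusters were somewhat closer together on the distal side than on 2L before 20 Mb in both replicates. Past the boundary they were far sparser.

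The same single split, applied to the last stretch of equal length on other arms, gave 2 that looked like 2L and 2 that did not. On 3L the boundary lay 1572 kb from the centromeric end in both replicates, with 52.6 ± 3.10% (SD, n = 2) on the distal side and 0.464 ± 0.263% on the centromeric side. On 2R it lay 1592 kb from that end, with 42.1 ± 2.16% and 1.73 ± 0.595%. On 2L it lay 911.5 kb from the end, so the sparsely covered piece was the shortest of the 3 in assembled sequence. Where the assembly stops differs between arms, so these distances are not distances to the centromere. On X the split left 28.8 ± 1.42% and 18.0 ± 0.366%, and on 3R the centromeric side had the higher coverage, 43.9 ± 3.31% against 24.9 ± 2.46%. The centromeric side of X held 100 kb steps at 0% in both replicates, from 911.5 to 611.5 kb from the end. Nearer the end a step reached 48.7 ± 6.30%. On 3R the boundary lay 1772 kb from the end in both replicates but 2592 kb in the series list. The distal side of 2R was uneven too, with a step at 0.651 ± 0.921%. The difference between arms was not tested.

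**Figure D4:**
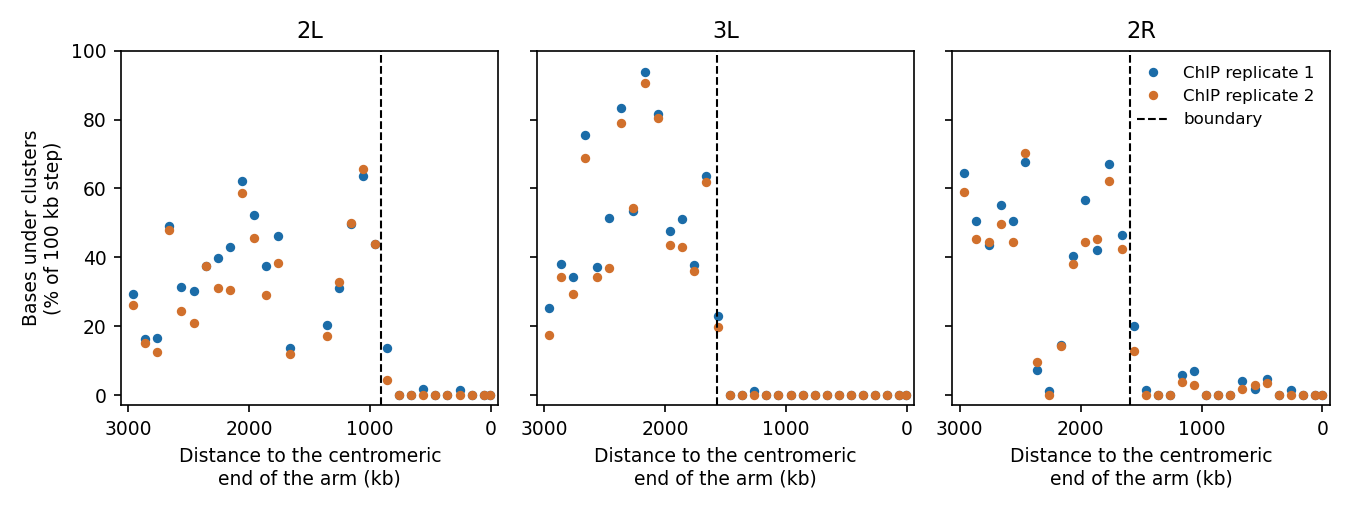
Percent of bases under H3K9me1 clusters in 100 kb steps (y axis) against distance to the centromeric end of the assembled arm in kb (x axis), for 2L, 3L and 2R, with a point per ChIP replicate and a dashed line at the boundary. On each arm the steps just outside the boundary are well covered, and from the second step inside it on most lie at or near 0. The first step inside it on 2L is at 13.6% in replicate 1 and 4.24% in replicate 2.

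Beyond the assembled arm, the separate sequence 2LHet, 368.9 kb of heterochromatin assigned to 2L, held 1 cluster in each replicate. It covered 0.527% of 2LHet in replicate 1 and 0.510% in replicate 2, and the series list held 3 clusters there, at 1.27%. These values were close to that of the centromeric side of the boundary in replicate 2, 0.465%, and below that in replicate 1, 1.81%. Repeats in such sequence limit where short reads can be placed. Their part in the low coverage of 2LHet, and of the centromeric side of 2L, was not tested.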

How the data were processed

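H3K9me1 ChIP-seq of adult head nuclei was analysed from the lists of enriched clusters that the authors deposited for 2 ChIP replicates and for the series as a whole. Positions are those of FlyBase release 5, per the file headers. The authors gave each cluster a signed score, whose scale is not given in the sources used here, as for the caller, its threshold and the merging of replicates. Bowtie 0.12.7 is the aligner named in the submitters' processing notes, and inputs and ChIP libraries were matched by number, per the labels.

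Coverage is the percent of bases under clusters in 20 kb tiles. The boundary is the least-squares single split with at least 10 tiles on each side. On made-up lists with known answers it was exact without noise; with noise it could fall a few tiles too far from the centromere, so its place is known only to within several tiles. Clusters took a side by midpoint, gaps crossing the boundary or the left-out stretch were not counted, and replicates shared a cluster from 1 bp of overlap.

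Named regions were, on each side, the 5 widest, the 3 highest-scoring and the 3 nearest to the boundary among series clusters touched by both replicates, and the 5 longest cluster-free stretches. The members, lists and measures were chosen with earlier results of these data known. No genome of this release was used, so no sequence is shown and no gene is assigned. Python 3.11.15, NumPy 2.4.6 and Matplotlib 3.10.9 were used.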

Additional observations from a re-analysis of the deposited data

How the results depend on the processing

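The boundary stayed within 60 kb of 22100001 under each setting run. It was 22060001 both with clusters scoring no less than their list's median and with clusters of at least 2 kb, 22040001 with the half-height rule, and 22130001 on average when the histone locus was kept, where replicate 1 gave 22160001 and replicate 2 gave 22100001. The coverage ratio was below 1 throughout: 0.0837 with the half-height rule, 0.148 with the boundary 100 kb further from the centromere and 0.00490 with it 100 kb nearer, both added after the data were seen. The density ratio was 0.122 with the half-height rule and 0.179 with the boundary further out. The gap ratio was 1.71, 1.17 and, in the series list, 3.55 for the half-height rule, the boundary further out and that list. With the boundary further out it was 0.764 in replicate 2 alone, so wider median spacing past the boundary did not hold there. The width ratio was 0.678 and 0.688 with the score and width minimums and 0.741 in the series list. It was below 1 in both replicates under these minimums, the half-height rule, joining and the boundary further out. The score difference was below 0 in both under the same settings other than joining, and with the histone locus kept. Sharing was lower in both under the score minimum, the half-height rule and the boundary further out. The minimums, the half-height rule and the boundary further out all set the split before 22100001. With the half-height rule and the boundary further out, clusters of covered tiles before that position thus counted as centromeric. Under the minimums, such clusters counted as centromeric in replicate 2 but not in replicate 1.

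With 1 replicate left out, the boundary was 22100001 either way, the coverage ratio ran from 0.0135 to 0.0471, the width ratio from 0.818 to 1.08, the gap ratio from 2.17 to 2.32 and the density ratio from 0.0154 to 0.0756. The score difference ran from -0.0699 to 0.0448 and the difference in shared clusters from -63.0 to 10 percentage points, so width, score and sharing reversed without replicate 1, which leaves 2 centromeric clusters. Apart from the fewer clusters that the minimums leave, the cause was not tested. No gap ratio could be had under the score and width minimums, with the histone locus kept or with the boundary nearer, and with the last no width, score or sharing value either, since too few clusters were left in a replicate. No paired analysis was possible because the inputs have no list of their own. Depth is unknown, which limits every statement on tiles without clusters.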

Other observations

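The series list typed 2 intervals of the region as depleted, of 31 in that list, and neither replicate list typed any there. They lay on the distal side at 20487704 to 20489015, with a score of -0.00432, and at 21279469 to 21280931, with a score of -0.0453. Both overlapped an enriched cluster of replicate 1 and none of replicate 2.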
